A study of Homo sapiens with 14 samples.

Results

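CGS-21680, an agonist of the adenosine 2A receptor, was added at 12.5 nM and without dexamethasone to MM1S cells, and these cells were compared with untreated cells after 6 h. MM1S is an established human multiple myeloma cell line. The comparison rests on 4 of the series' 14 Affymetrix arrays, 2 of untreated cells and 2 of CGS-21680 cells. The other 10 arrays hold, in pairs, salmeterol at 1 nM (which activates the beta-2 adrenergic receptor), the glucocorticoid dexamethasone at a low dose of 25 nM or a high dose of 2 µM, and each agonist added to low dexamethasone. All groups were MM1S cells grown in serum, and the label of each pair calls it biological replicates without saying how the cultures were kept apart, so the p-values reflect how far these samples spread and no more. A gene entered when it had a probe set with exactly 1 gene symbol and a log2 level of at least 4 on at least 2 of the 14 arrays, and the probe set with the highest mean stood for it. This left 9301 of 19775 named genes.

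The adenosine 2A receptor couples to the stimulatory G protein, which activates adenylyl cyclase and raises cyclic AMP. Cyclic AMP activates protein kinase A, which phosphorylates CREB, a transcription factor that binds cyclic AMP response elements in promoters. Cells answer with their own brakes, among them phosphodiesterases, which break cyclic AMP down, and RGS proteins, which shorten G-protein signals.

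Before the results, the arrays were checked. All 12 plasma cell markers were measured above the low-level filter. The log2 of their summed level was 16.33 and 16.26 on the untreated arrays and 16.06 and 16.26 on the CGS-21680 arrays. That sum is led by the most abundant members. Of the 12, TNFRSF17 and IRF4 fell, where 0.269% of all genes did. A positive difference was found in 2 (16.7%, against 53.4% of all genes), and the median difference was -0.16. MS4A1 of B cells, CD3E, CD8A and LCK of T cells, and CD14, CSF1R, S100A8 and S100A9 of monocytes lay at the floor of the table, a log2 level of 2.29, on all 4 arrays. Some markers of other cell types passed the filter, CR2 of B cells at 6.92 to 7.13 and TRAT1 of T cells at 7.50 to 8.15. HBB of red cells at 7.36 to 7.69, PECAM1 of endothelium at 5.56 to 6.00 and 2 of 8 stromal markers passed too. The log2 of the summed level of the 8 stromal markers was 10.15 to 10.70. The replicates of a group correlated over genes at 0.9868 to 0.9919. The CGS-21680 replicates differed in the log2 signal of the 3′ over the 5′ ACTB control probe sets, a measure of RNA quality, at 1.25 and 2.23 against 1.69 and 1.88 untreated, and these were the lowest and the highest of the 14 arrays. Beyond leaving each array out, its part in the results was not tested. ADORA2A, the receptor's own gene, is not analysed here. Of the other adenosine receptors, ADORA2B and ADORA3 lay at the floor on all 14 arrays, and ADORA1 was at 5.28 and 5.46 untreated and at 5.28 and 5.23 with CGS-21680.

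CGS-21680 alone changed 61 of the 9301 genes (0.656%), at an adjusted p under 0.05 in limma with Benjamini-Hochberg adjustment over all genes. Of these, 36 rose (0.387% of genes tested) and 25 fell (0.269%). The rises were the larger changes: 20 genes rose and 7 fell by at least 2-fold. On the log2 scale the rises ran from 0.49 to 4.22 with a median of 1.04, and the falls from -0.62 to -2.22 with a median of -0.84, while the median difference over all genes was 0.01. All 61 genes had arrays that did not overlap between the groups. Among all genes tested, both CGS-21680 arrays lay above both untreated arrays in 18.9% and below them in 13.8%. With 2 arrays per group the smallest two-sided p of an exact permutation test is 0.333, so each call rests on limma's spread, pooled over the 7 groups and over genes.

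How firmly a gene was called differed widely. STAT4, TESC, FBXO32, SAT1, DNAAF1, RGS1, PDLIM3 and GLA among the rises and SH2B2 among the falls passed with each of the 4 arrays left out in turn. TMEM65 passed the filter on low levels through its untreated arrays alone and could not be tested without either of them, and its call was lost when values under 4 were raised to 4 (-0.41, adjusted p = 0.0736). The other 51 genes lost the call without at least 1 array. The adjusted p lay between 0.04 and 0.05 for 16 of the 61 genes. Leaving out an untreated array cost more calls: 11 genes in all were called without untreated replicate 1 and 17 without replicate 2, against 41 and 45 without CGS-21680 replicate 1 or 2. The split of rises and falls moved too, to 10 and 1 or 16 and 1 without untreated replicate 1 or 2, to 31 and 10 without CGS-21680 replicate 1, and to 20 and 25 without CGS-21680 replicate 2. Of the 61 genes, 36 were still called with no filter on low levels, 46 with the mean of each gene's probe sets and 48 with the replicate number as a block. Averaging probe sets ended the calls of PDE4B, DDAH2, BCL2L11, NETO2, EZR, AGAP1, ABHD16A, KIAA0930, CCND2, HMCES, ZNF232-AS1, TNFAIP3, ATP8B2, CREB3L2 and FRMD6.

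**Figure D1:**
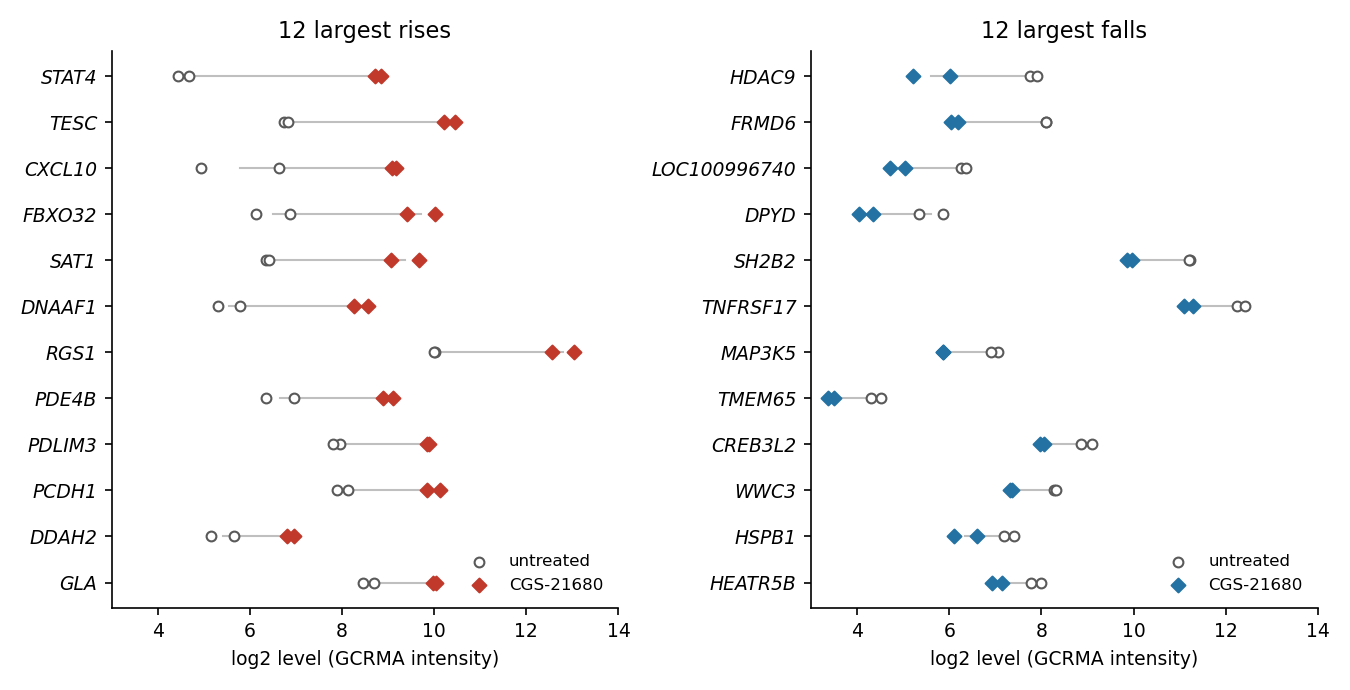
Log2 level (GCRMA intensity, horizontal axis) of the 12 genes that rose most (left) and the 12 that fell most (right). Each open circle is 1 untreated array and each filled diamond 1 CGS-21680 array, and the line joins the group means. STAT4 moved from 4.68 and 4.43 to 8.71 and 8.85. In none of the 24 genes do the groups overlap, which was a condition for choosing them.

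Some brakes on G-protein and cyclic AMP signalling were among the genes that rose. RGS1, which speeds GTP hydrolysis by G-protein alpha subunits, was at 10.02 and 9.99 untreated and at 12.56 and 13.03 with CGS-21680. The CGS-21680 arrays stood far above the untreated pair, a rise of 2.79 ± 0.17 (log2, SE, n = 2 per group), or 6.9-fold, with limma's adjusted p of 0.0002. RGS2, a relative with a preference for Gq, went from 8.01 on both untreated arrays to 8.96 and 9.17, a rise of 1.06 (limma, adjusted p = 0.0044), which missed the threshold without untreated replicate 1 (adjusted p = 0.0545). PDE4B, a cyclic AMP phosphodiesterase, rose from 6.95 and 6.36 to 9.10 and 8.90, by 2.35 ± 0.34 (limma, adjusted p = 0.0188). PDE4B was the less secure call, since it missed the threshold without any 1 of the 4 arrays, with adjusted p of 0.0698 to 0.138.

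Of the 8 RGS genes tested, RGS1 and RGS2 rose and none fell, where 0.387% of all genes rose and 0.269% fell. The median difference of the list was 0.24 and the lowest -0.75. RGS19, a regulator of inhibitory G proteins, was 0.59 lower without passing (adjusted p = 0.057). Of the 7 cyclic AMP phosphodiesterases tested, PDE4B alone rose and none fell, while the list's median difference was 0.78 against 0.01 for all genes. PDE3B was at 3.24 and 3.22 untreated and at 4.46 and 5.13 with CGS-21680. PDE7A lay at 7.44 and 7.56 against 8.30 and 8.35, and PDE8A at 5.64 on both untreated arrays against 6.60 and 6.24. In these 3 genes, too, the treated arrays lay above the untreated ones, but with adjusted p of 0.19, 0.18 and 0.33 none passed. PDE4D differed by 0.60 ± 0.56, PDE4A by -0.24 and PDE1B by 0.00. Without the filter on low levels, and with the mean of each gene's probe sets, no phosphodiesterase passed. PDE4B then had adjusted p of 0.0797 and 0.0505.

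Of 35 listed cyclic AMP and CREB targets, 18 were tested, and RGS1, RGS2 and PDE4B, already described, were the 3 that rose, where 0.387% of all genes did. Both treated arrays lay above both untreated ones in 9 of the 18, against 18.9% of all genes. None fell, and the list's median difference was 0.15. The list was drawn up with earlier results of these data known, so these counts are a description and no test. CREM, which encodes the inducible repressor ICER among other forms, was at 4.09 and 4.84 untreated and at 5.16 and 5.56 with CGS-21680. The groups did not overlap, but the difference of 0.89 ± 0.36 did not pass (limma, adjusted p = 0.52). With the mean of its 4 probe sets, all of positive sign, it passed (1.02, adjusted p = 0.0432). The orphan receptor gene NR4A1 differed by 0.01 ± 0.11, the kinase gene SIK1 by -0.23 ± 0.20 and the AP-1 member JUNB by -0.18 ± 0.12. NR4A2, FOS and EGR1 lay at the floor on all 4 arrays. Of 15 immediate early genes tested, none passed in either direction. KLF2, a zinc-finger transcription factor, was at 8.23 and 8.75 untreated and at 7.11 and 7.58 with CGS-21680, with an adjusted p of 0.15.

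The promoters of the changed genes were searched for the cyclic AMP response element because CREB is the pathway's own transcription factor. RefSeq windows (build GRCh38.p14, 250 bases before to 50 after the transcript start, 1 or more per gene) were matched by symbol for 29 of the 36 genes that rose and 20 of the 25 that fell. The motifs were the full element TGACGTCA and its core TGACG, read on both strands, and every full element also holds the core. The 6 windows shown are those with the full element (PDLIM3, ABHD16A and CREB3L2) and those of STAT4, RGS1 and RGS2 with the core alone. Each line gives the 200 bases before the transcript start, 5′ to 3′ on the gene's strand, with the motif in capitals (CGTCA is the core on the other strand).
PDLIM3 (chr4:185535508-185535707, minus strand): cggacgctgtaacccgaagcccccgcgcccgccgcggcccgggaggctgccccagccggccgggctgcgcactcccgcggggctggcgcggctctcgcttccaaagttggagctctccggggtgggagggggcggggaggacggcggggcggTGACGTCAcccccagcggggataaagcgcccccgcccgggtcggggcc
ABHD16A (chr6:31703325-31703524, minus strand): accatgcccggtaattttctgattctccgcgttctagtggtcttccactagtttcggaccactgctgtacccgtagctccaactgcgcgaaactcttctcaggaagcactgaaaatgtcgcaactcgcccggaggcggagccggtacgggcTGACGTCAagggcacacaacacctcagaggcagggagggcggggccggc
CREB3L2 (chr7:138002087-138002286, minus strand): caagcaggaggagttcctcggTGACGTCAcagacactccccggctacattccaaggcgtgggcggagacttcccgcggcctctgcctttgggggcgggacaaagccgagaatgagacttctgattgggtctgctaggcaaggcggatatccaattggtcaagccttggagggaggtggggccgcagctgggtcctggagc
STAT4 (chr2:191150995-191151194, minus strand): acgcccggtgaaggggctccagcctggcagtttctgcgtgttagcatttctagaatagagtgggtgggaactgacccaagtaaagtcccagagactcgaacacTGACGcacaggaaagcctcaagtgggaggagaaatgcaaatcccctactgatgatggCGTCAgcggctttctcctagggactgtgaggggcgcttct
RGS1 (chr1:192575573-192575772, plus strand): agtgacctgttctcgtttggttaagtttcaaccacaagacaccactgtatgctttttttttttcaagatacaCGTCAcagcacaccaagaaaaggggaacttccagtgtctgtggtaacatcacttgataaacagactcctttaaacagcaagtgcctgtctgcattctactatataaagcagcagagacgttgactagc
RGS2 (chr1:192808839-192809038, plus strand): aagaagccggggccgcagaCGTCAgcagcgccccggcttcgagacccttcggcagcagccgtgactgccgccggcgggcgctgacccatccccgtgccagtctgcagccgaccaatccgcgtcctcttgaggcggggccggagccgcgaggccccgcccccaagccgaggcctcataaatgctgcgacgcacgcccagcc

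The full element begins 48 bases before the start in PDLIM3, 49 in ABHD16A and 179 in CREB3L2. PDLIM3 and ABHD16A rose and CREB3L2, itself an endoplasmic reticulum transcription factor of the CREB3 family, fell. Both ABHD16A and CREB3L2 have a probe set of the opposite sign, and with the mean of their probe sets the differences were 0.42 and -0.48, with adjusted p of 0.079 and 0.222. The shown STAT4 window, 1 of 2, holds the core at 97 and 40 bases before the start, RGS1 at 128 and RGS2 at 181. Windows not shown hold the core too, among them those of GLA and PCDH1, which rose, and of UAP1 and GLT8D1, which fell. No window of PDE4B holds it. The full element was in a window of 2 of the 29 genes that rose (6.9%) and 1 of the 20 that fell (5%), against 3.99% of the tested genes with a window. By window, 4.08% of the windows of the rises and 3.12% of those of the falls hold it. The share was 2.92% for windows of tested genes and 1.85% for all windows of this length. The core was in 41.4% of the genes that rose, 20% of those that fell and 42.2% of the tested genes, so the share among the rises was close to the background. A match is a string of letters and no measured binding.

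STAT4, a signal transducer activated by interleukin-12, rose most of all genes tested. It was at 4.68 and 4.43 untreated, close to the filter level, and 8.71 and 8.85 with CGS-21680. The rise of 4.22 ± 0.29, or 18.7-fold, had an adjusted p of 0.00029 in limma and kept passing with each array left out, with at most 0.00749. STAT4 was the 1 member to pass among the 19 tested STAT, SOCS and interferon response genes, where 0.656% of all genes passed. The list's median difference was 0.02. Thus GBP1 differed by 0.50, MX1 by -0.57 and IRF1 by -0.36 without passing.

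CXCL10, an interferon-inducible chemokine that attracts cells with the receptor CXCR3, was at 6.63 and 4.94 untreated and at 9.18 and 9.08 with CGS-21680. The untreated arrays lay far apart, but both were well below the treated pair. The rise was 3.35 ± 0.43 (limma, adjusted p = 0.0106), and the call was lost when either CGS-21680 array was left out (adjusted p of 0.0713 and 0.0564) or when genes of low level were kept in (0.0549). IL10RA, the ligand-binding chain of the interleukin-10 receptor, rose by 1.01 from 8.18 and 8.34 to 9.22 and 9.31. It missed the threshold without CGS-21680 replicate 2 or either untreated array, with adjusted p up to 0.115. These 2 were the members that passed among 15 tested chemokines, cytokines and receptors, and none fell. Of all genes, 0.387% rose and 0.269% fell. CCL4, a chemokine for monocytes and T cells, was lower on both treated arrays (7.29 and 6.94 against 8.86 and 8.60) but did not pass (adjusted p = 0.42), and CXCR4 was 0.65 higher with an adjusted p of 0.28, which became 0.0488 without CGS-21680 replicate 1.

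BCL2L11, which encodes the BH3-only killer BIM, was at 9.55 and 9.59 untreated and at 10.50 and 10.57 with CGS-21680. Replicates lay close together in both groups, and the rise was 0.97 ± 0.11, or 1.96-fold (limma, adjusted p = 0.0065). It missed the threshold without untreated replicate 1 (adjusted p = 0.072) or replicate 2 (0.0579). It also missed it when its 6 probe sets, all of positive sign, were averaged (0.61, adjusted p = 0.531). BCL2L11 was the 1 of 12 tested BCL2 family members to pass, where 0.656% of all genes did. BMF, another BH3-only gene, was 0.47 higher (adjusted p = 0.14), and the survival gene MCL1 differed by -0.38 (adjusted p = 0.10, and 0.0285 with no filter on low levels). PMAIP1, which encodes NOXA, was at 4.29 and 4.39 untreated and at 3.23 and 3.42 treated (adjusted p = 0.10), and BCL2 and BCL2L1 differed by 0.07 and 0.13. DAPK1, the death-associated protein kinase, rose by 1.10 from 7.62 and 7.37 to 8.60 and 8.59, a call lost without any 1 of the 4 arrays, with adjusted p up to 0.0906.

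FBXO32, the ubiquitin ligase subunit atrogin-1, was at 6.14 and 6.88 untreated and at 9.42 and 10.02 with CGS-21680. The rise of 3.21 ± 0.30, or 9.26-fold, had an adjusted p of 0.0023 in limma. Of its 6 probe sets, 1 pointed the other way, and the average of all 6 rose by 1.04 (adjusted p = 0.0328). It was the 1 member to pass among 16 tested FOXO targets and atrophy ligases (0.656% of all genes passed), whose median difference was -0.10. SAT1, the acetyltransferase that starts polyamine breakdown, rose by 2.99 ± 0.23 from 6.35 and 6.41 to 9.06 and 9.68 (limma, adjusted p = 0.00053). It was the 1 of 12 polyamine genes to pass, and ODC1, the first enzyme of polyamine synthesis, differed by -0.12.

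GLA, the lysosomal alpha-galactosidase, went from 8.70 and 8.46 to 9.98 and 10.04, a rise of 1.43 ± 0.14 (limma, adjusted p = 0.0029). CTSB, the lysosomal protease cathepsin B, rose by 1.13, the autophagy protease gene ATG4C by 1.02 and RUBCN, a negative regulator of autophagy, by 0.82. CTSB, ATG4C and RUBCN missed the threshold without CGS-21680 replicate 2 or either untreated array, with adjusted p up to 0.214.

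TESC, which encodes the calcium-binding protein tescalcin, had the smallest p of the comparison: 6.75 and 6.82 untreated against 10.21 and 10.46 treated, a rise of 3.55 ± 0.13, or 11.7-fold, with limma's adjusted p of 2.3e-06. DNAAF1, an assembly factor of ciliary dynein arms, rose by 2.87 from 5.79 and 5.30 to 8.27 and 8.56, and the mean of its 2 probe sets by 1.45. PDLIM3, a cytoskeletal protein of the muscle Z disc, rose by 1.98 from 7.96 and 7.81 to 9.88 and 9.84. In each of these 3 genes the gap between the groups was several times the gap between replicates.

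PCDH1, a protocadherin, was at 7.90 and 8.12 untreated and at 9.84 and 10.12 with CGS-21680, a rise of 1.97 that missed the threshold without untreated replicate 1 (adjusted p = 0.072). EZR, which encodes ezrin, a link between membrane and actin, rose by 0.92, the focal adhesion gene LPXN by 0.92, and the adhesion molecule CADM1 by 0.84. BBS1, a subunit of the ciliary BBSome, rose by 0.98. All 4 missed the threshold without CGS-21680 replicate 2 or either untreated array, and LPXN, CADM1 and BBS1 also without CGS-21680 replicate 1. Of 18 integrin and adhesion genes tested none passed, and ITGA4 was at 9.24 and 8.53 untreated and 7.76 and 7.82 treated with an adjusted p of 0.26.

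The remaining rises were of mixed function. DDAH2, a dimethylarginine hydrolase family member, rose by 1.47 from 5.16 and 5.66 to 6.95 and 6.81 (limma, adjusted p = 0.0489). IGFBP3, a binding protein of insulin-like growth factors, rose by 1.17 from 7.92 and 7.99 to 9.21 and 9.05 (adjusted p = 0.015). CCND2, a D-type cyclin overexpressed in part of myelomas, rose by 0.76 from 13.44 and 13.64 to 14.15 and 14.45, at an adjusted p of 0.0489. CMTM7 rose by 1.37, CABLES1 by 1.29, NETO2 by 0.95, AGAP1 by 0.91, ABHD16A by 0.87 and KIAA0930 by 0.80. The glycosyltransferase gene MGAT5 rose by 0.76, HMCES, a shield of abasic DNA sites, by 0.74, and the vesicle fusion ATPase gene NSF by 0.66. DTWD1, nearly constant at 4.62 or 4.63 on all arrays with dexamethasone, rose by 0.57. The mitochondrial carrier gene SLC25A29, at 4.01 to 4.13 on those arrays, rose by 0.49. DDAH2, IGFBP3, CCND2, CMTM7, CABLES1, ABHD16A, KIAA0930, HMCES, NSF and SLC25A29 missed the threshold whichever of the 4 arrays was left out. AGAP1 missed it without CGS-21680 replicate 2 or either untreated array, and DTWD1 without either untreated array. MGAT5 missed it without untreated replicate 1 alone and NETO2 without untreated replicate 2 alone. With the replicate block DDAH2, CMTM7, KIAA0930 and SLC25A29 missed it. SLC25A29 also missed it with quantile normalization or robust moderation.

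Among the falls were genes of the plasma cell programme. TNFRSF17, which encodes the surface receptor BCMA, was at 12.24 and 12.41 untreated and at 11.09 and 11.29 with CGS-21680. It fell by 1.14 ± 0.13 on the log2 scale, or 2.2-fold (limma, adjusted p = 0.0065). IRF4, a transcription factor needed by myeloma cells, went from 11.88 and 11.93 to 11.11 and 11.04, a difference of -0.83 ± 0.11 (limma, adjusted p = 0.0106). In both genes the groups were clearly apart and the replicates close. TNFRSF17 missed the threshold without untreated replicate 1 (adjusted p = 0.0505) or replicate 2 (0.0626). IRF4 missed it without CGS-21680 replicate 2 (0.0574) or either untreated array (up to 0.0863).

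Most of the plasma cell and myeloma list did not pass. Of 33 genes tested, TNFRSF17 and IRF4 fell and CCND2 rose, with a median difference of -0.06. Of all genes, 0.269% fell and 0.387% rose. The syndecan gene SDC1 differed by -0.28 ± 0.11, PRDM1, the plasma cell repressor BLIMP1, by -0.14 ± 0.21, and XBP1, the secretory pathway factor, by 0.55 ± 0.28. MYC was at 12.49 and 12.50 untreated and at 12.41 and 12.36 treated, a difference of -0.11 ± 0.12. CD38, a surface ectoenzyme, was at 6.70 on both untreated arrays and at 7.81 and 7.97 on the treated ones, yet with 1.19 ± 0.29 it did not pass (adjusted p = 0.16), though it did with the replicate block (0.0372).

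HDAC9, a class IIa histone deacetylase, moved furthest down, from 7.75 and 7.91 to 5.21 and 6.01, and fell by 2.22 on the log2 scale. The treated replicates lay further apart than the untreated ones but below both. Its adjusted p of 0.0374 in limma rose to as much as 0.198 without untreated replicate 2, and also missed the threshold without untreated replicate 1, without CGS-21680 replicate 1, or with no filter on low levels (0.13). FRMD6, a FERM-domain protein of the Hippo pathway, went from 8.10 and 8.11 to 6.03 and 6.19, and fell by 1.99. It missed the threshold without either untreated array (adjusted p of 0.072 and 0.0626) and when its 2 probe sets were averaged (0.0565). SH2B2, an adaptor of receptor tyrosine kinases, fell by 1.30 from 11.23 and 11.20 to 9.97 and 9.86 (limma, adjusted p = 0.0026), the fall that passed without each array in turn.

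Other falls reached signalling and stress genes. MAP3K5, the stress kinase ASK1, fell by 1.12 from 7.06 and 6.90 to 5.86 on both treated arrays. TNFAIP3, a brake on NF-kappaB also called A20, fell by 0.65, CSF2RB, the shared beta chain of several cytokine receptors, fell by 0.70, and HSPB1, a small heat shock protein, fell by 0.94 from 7.19 and 7.40 to 6.10 and 6.60. CREB3L2 fell by 0.95 from 8.85 and 9.09 to 7.98 and 8.06. These 5 all missed the threshold without at least 3 of the 4 arrays, with an adjusted p of up to 0.275 for MAP3K5 and CSF2RB.

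Metabolic and other genes completed the falls. DPYD, the first enzyme of pyrimidine breakdown, fell by 1.40 from 5.86 and 5.35 to 4.35 and 4.05. GLDC, of the glycine cleavage system, fell by 0.84, UAP1, an enzyme of UDP-N-acetylglucosamine synthesis, by 0.82, and UTP3, a factor of small ribosomal subunit processing, by 0.78. LOC100996740 fell by 1.43, WWC3 by 0.95, HEATR5B by 0.86, GLT8D1 by 0.80, the scaffold NHERF1 by 0.75, RAB36 by 0.70, the flippase gene ATP8B2 by 0.68, SLC25A24 and ZNF232-AS1 by 0.65 each, and BIN2 by 0.62. TMEM65 was at 4.31 and 4.51 untreated and at 3.37 and 3.50 treated. Since both treated arrays lay under the filter level of 4, its fall is given as at least 1.33-fold, and that of SLC25A24 likewise as at least 1.26-fold. With values under 4 raised to 4 both calls were lost, TMEM65 at -0.41 (adjusted p = 0.0736) and SLC25A24 at -0.33 (0.149). ZNF232-AS1 has 1 of 2 probe sets of the opposite sign, and their mean was -0.28 (adjusted p = 0.56). All genes of this paragraph that could be tested without each array missed the threshold without either untreated array, and also without at least 1 of the CGS-21680 arrays.

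**Figure D2:**
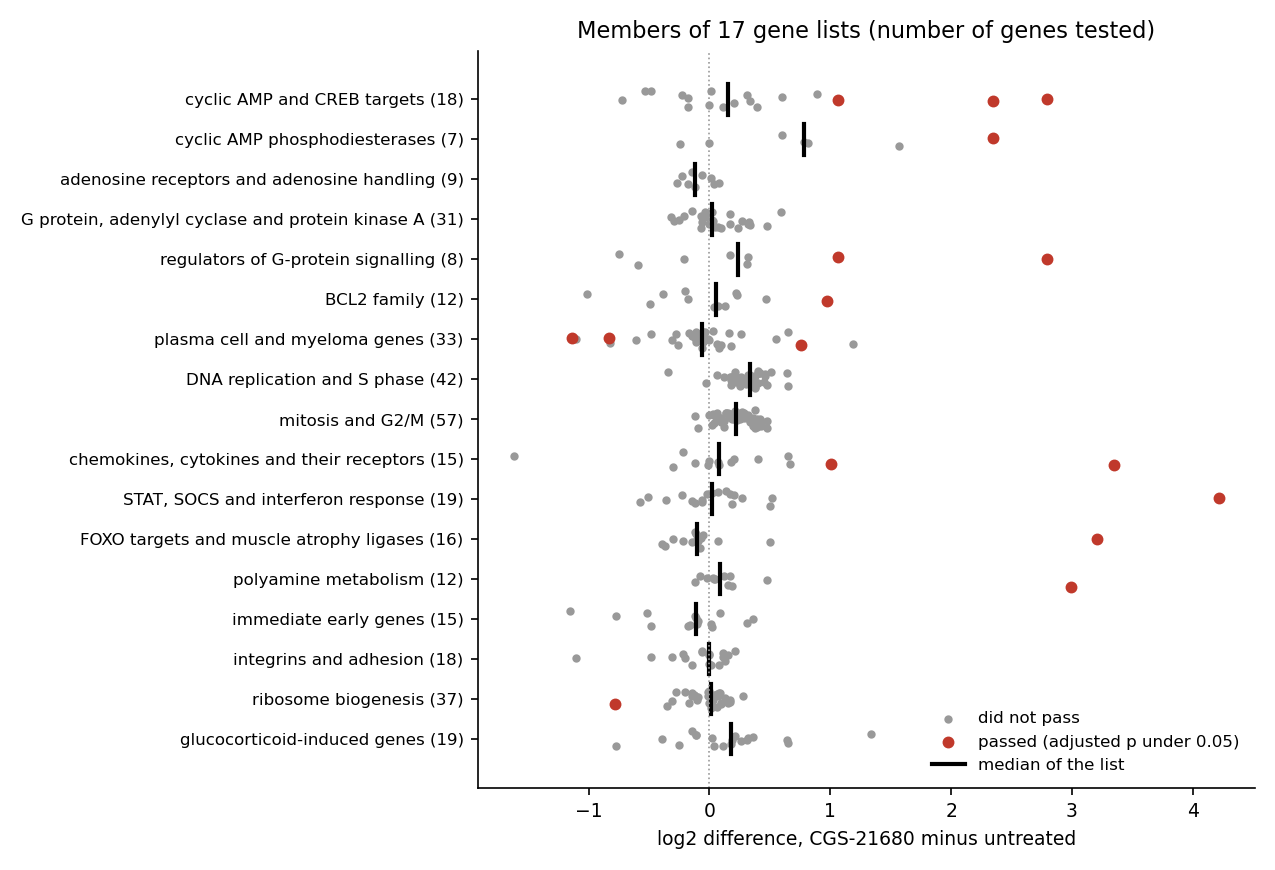
Log2 difference, CGS-21680 minus untreated (horizontal axis), of each tested member of 17 gene lists, with the number of genes tested in brackets. Red points passed the test, grey points did not, and the black bar is the list's median. The median is 0.78 for the phosphodiesterases, 0.34 for DNA replication and S phase, 0.24 for the RGS genes, 0.22 for mitosis and 0.18 or less for the other 13.

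The signalling machinery itself moved little. Of 31 tested genes of the G protein, adenylyl cyclase and protein kinase A list none passed, the median difference was 0.02, and 16 of 31 differences were positive. GNAS, which encodes the stimulatory alpha subunit, differed by -0.14 ± 0.11. The regulatory subunit gene PRKAR1A differed by 0.59 ± 0.28 and the catalytic subunit gene PRKACB by 0.48 ± 0.27. Of 9 tested genes of adenosine receptors and adenosine handling none passed either, and differences ran from -0.27 for the adenosine kinase gene ADK to 0.08.

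Glucocorticoid-induced genes were examined because dexamethasone was the study's partner drug. Of 19 tested none passed with CGS-21680 alone, at a median difference of 0.18. FKBP5, a chaperone of the glucocorticoid receptor, differed by 0.18 ± 0.08, TSC22D3, which encodes GILZ, by 0.11 ± 0.24, and the receptor gene NR3C1 by 0.21 ± 0.20. DDIT4, an inhibitor of mTOR signalling, was at 4.92 and 5.46 untreated and at 5.77 and 7.29 treated, a wide spread between the treated replicates (adjusted p = 0.27, and 0.0087 without CGS-21680 replicate 1). Of 37 ribosome biogenesis genes tested, UTP3 fell and none rose, at a median of 0.01, where 0.269% of all genes fell and 0.387% rose.

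No DNA replication or mitosis gene passed, but their differences leaned 1 way. Of 42 tested DNA replication and S phase genes, 40 were higher in the mean with CGS-21680 (95.2%, against 53.4% of all genes), and 36 had both treated arrays above both untreated ones (18.9% of all genes did). Their median difference was 0.34. MCM6, a subunit of the replicative helicase, was at 11.36 and 11.20 untreated and at 11.97 and 11.87 treated (0.64 ± 0.13, adjusted p = 0.074), and MCM10, a replication initiation factor, at 7.59 and 7.97 against 8.41 and 8.44 (adjusted p = 0.0643). MCM6 passed with a variance trend and robust moderation (0.0441), and MCM10 without untreated replicate 2 (0.0481) and with the replicate block (0.0456). The lean was shared by both treated arrays and was larger in replicate 2: the median was 0.43 without CGS-21680 replicate 1 and 0.23 without CGS-21680 replicate 2. After quantile normalization it was 0.31.

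Of 57 tested mitosis and G2/M genes, 55 had a positive difference (96.5%, against 53.4% of all genes), with a median of 0.22, and 25 had both treated arrays above both untreated ones, against 18.9% of all genes. That median rested on the untreated pair: it was 0.08 without untreated replicate 2 and 0.38 without untreated replicate 1. The kinase gene NEK2 went from 9.60 and 9.42 to 9.97 and 9.99 (adjusted p = 0.15), and the kinesin gene KIF2C from 8.07 and 8.18 to 8.63 and 8.57 (adjusted p = 0.19). In RNA from a whole culture, a change in the number of cells in a state and a change in RNA per cell cannot be told apart. Genes of a list share cells and arrays, so these counts are a description and no test.

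**Figure D3:**
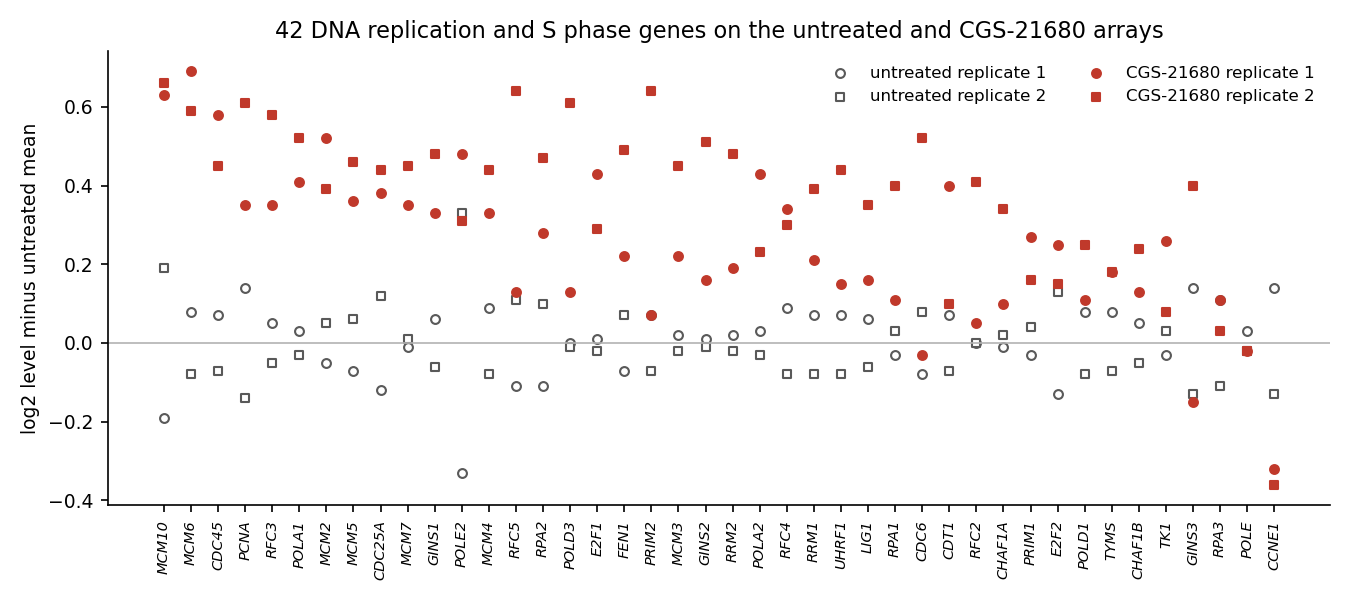
Log2 level of 42 DNA replication and S phase genes on each of the 4 arrays, minus the gene's untreated mean (vertical axis), with genes ordered by the difference. Open symbols are untreated and filled red symbols CGS-21680, circles replicate 1 and squares replicate 2. In 36 genes both red symbols lie above both open ones, and no gene passed the test.

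The same dose of CGS-21680 was also given beside 25 nM dexamethasone, and that pair of groups uses none of the 4 arrays above, although the fit pools the spread of all groups. There, 1.75% of genes rose and 1.64% fell against dexamethasone alone. Over all genes, 50.6% had a positive difference beside dexamethasone. Of the 36 genes that rose with CGS-21680 alone, 31 had a positive difference beside dexamethasone, 24 rose, and 1, IGFBP3, fell. Of the 25 that fell alone, 22 had a negative difference and 17 fell. The median difference was 0.94 beside dexamethasone against 1.04 alone for the rises and -0.73 against -0.84 for the falls. These counts dropped to between 15 and 17 of the rises and between 6 and 9 of the falls when any 1 of the 4 dexamethasone arrays was left out, and to 19 and 10 without the filter on low levels.

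Beside dexamethasone STAT4 rose by 5.45, DNAAF1 by 5.12, TESC by 4.27, RGS1 by 3.19, PDE4B by 2.82 and SAT1 by 2.69. BCL2L11 rose by 1.49 and RGS2 by 1.19, while HDAC9 fell by 2.47, IRF4 fell by 1.55, CSF2RB fell by 1.43 and TNFRSF17 fell by 1.30. Other changes seen alone were small there. PCDH1 differed by 0.42, CABLES1 by -0.11, CCND2 by 0.06, KIAA0930 by -0.01 and TNFAIP3 by 0.16, none past the test. The difference between the 2 backgrounds was tested as an interaction, which 14 genes passed (0.151%), among them IGFBP3 and NSF of the 61. DNAAF1 missed it (2.25 ± 0.34, adjusted p = 0.0513). CXCL10, which rose by 2.05 beside dexamethasone, missed it by far (-1.30 ± 0.615, limma adjusted p = 0.826).

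IGFBP3 went opposite ways in the 2 backgrounds. Alone it rose from 7.92 and 7.99 to 9.21 and 9.05, and beside dexamethasone, which itself left it at 5.32 and 5.89, it went down to 4.66 and 4.47. The interaction was -2.22 ± 0.23 (limma, adjusted p = 0.0092). NSF rose in both, from 8.14 and 8.03 to 8.75 on both arrays alone, and from 7.95 and 8.11 to 9.66 and 9.64 beside dexamethasone (interaction 0.96 ± 0.14, adjusted p = 0.043). MYC, with a difference of -0.11 alone, fell beside dexamethasone from 11.90 and 12.18 to 10.65 and 10.67 (interaction -1.28 ± 0.17, adjusted p = 0.0338). Of the ribosome biogenesis list, 10 of 37 fell beside dexamethasone against 1 alone. Over all genes, 1.64% fell beside dexamethasone against 0.269% alone. Of the phosphodiesterases, 4 of 7 rose against 1 alone, where 1.75% of all genes rose beside dexamethasone against 0.387% alone. More genes were thus called in general beside dexamethasone, and the differences between counts were not tested.

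**Figure D4:**
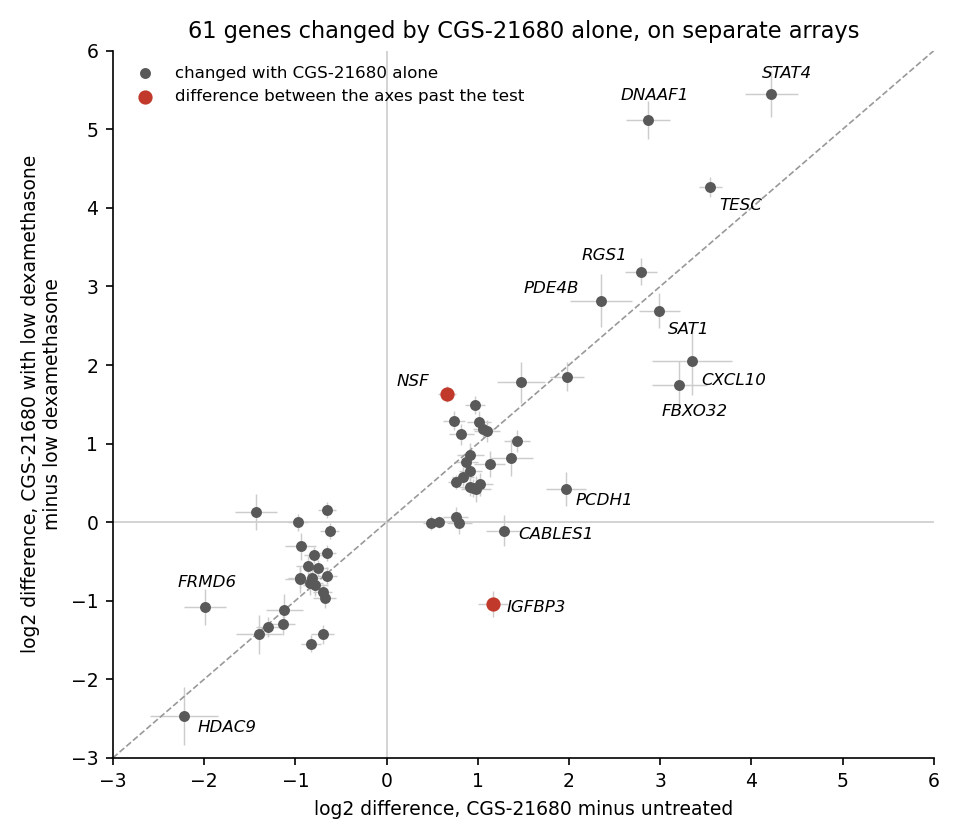
Log2 difference with CGS-21680 alone (horizontal axis) and beside low dexamethasone (vertical axis) for the 61 genes that changed with CGS-21680 alone, with bars of 1 SE. The dashed line marks equal differences, and red points are IGFBP3 and NSF, whose interaction passed the test. STAT4, TESC, RGS1 and SAT1 lie high on both axes, and IGFBP3 lies below 0 on the vertical one (-1.04).

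Salmeterol, which acts on another receptor of the same G-protein class, was given at 1 nM and CGS-21680 at 12.5 nM, so the sizes below belong to these doses and do not rank the drugs. The comparison shares the CGS-21680 arrays with the one above. It called 46 of all genes (0.495%). Of the 61 genes changed by CGS-21680 alone, 17 differed between the agonists: 16 had the smaller change with CGS-21680, and DTWD1 the larger. DTWD1 is a gene of low level, at 5.42 on both CGS-21680 arrays and 4.63 on both salmeterol arrays. It was at 4.62 or 4.63 on every array with dexamethasone, so its small SE of 0.072 rests on nearly constant values. FBXO32 was at a mean of 9.72 with CGS-21680 and 12.55 with salmeterol (difference -2.83 ± 0.30, limma adjusted p = 0.0069), SAT1 at 9.37 and 12.14, and TESC at 10.34 and 12.10. IRF4 was at 11.07 and 10.23 (0.84 ± 0.11, adjusted p = 0.0144). The difference did not pass for STAT4 (8.78 and 10.08), RGS1 (12.79 and 13.58), PDE4B (a difference of -1.02) or BCL2L11 (10.54 and 11.12), for which the adjusted p ran from 0.0669 to 0.242 and salmeterol had the higher mean. The 17 fell to between 4 and 12 with any 1 of these 4 arrays left out, 4 without CGS-21680 replicate 1.

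**Figure D5:**
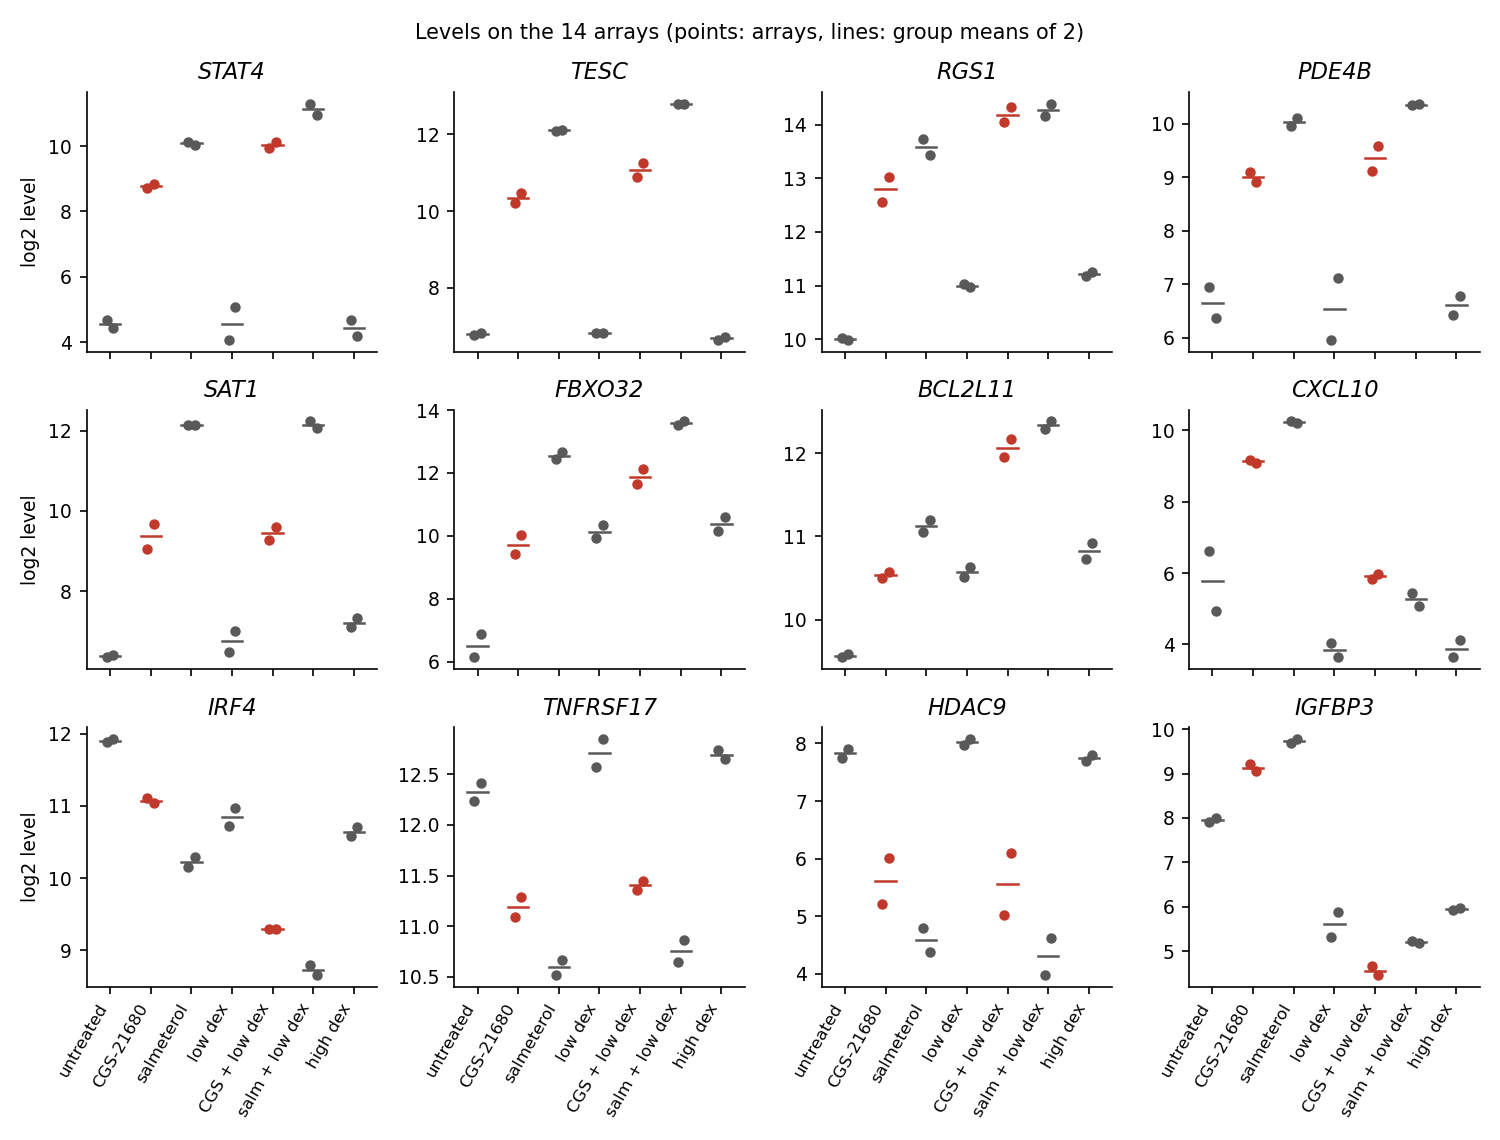
Log2 levels (vertical axes, each panel with its own range) of 12 genes on all 14 arrays, with points for arrays and lines for the means of 2. CGS-21680 groups are red, "salm" is salmeterol and "dex" dexamethasone. STAT4, TESC and RGS1 are high in the 4 groups with an agonist. CXCL10 is at 9.18 and 9.08 with CGS-21680 alone and at 10.25 and 10.20 with salmeterol alone. It is at 5.09 to 5.97 where an agonist and dexamethasone were combined, against 4.05 and 3.66 with low dexamethasone alone. IRF4 is lowest in the groups that combine an agonist and dexamethasone.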

How the data were processed

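Labelled RNA of 14 samples was hybridised to an Affymetrix 3′ array. The authors deposited 1 intensity per probe set, made with GCRMA per the submitters' processing notes; its version is not given in the sources used here. These deposited intensity values have a floor of 4.879, at which 37.6% to 40.1% of an array's probe sets lay, and were taken as linear and normalized from their distribution. Log2 was taken without a pseudocount. The floor compresses changes of weak genes. Genes were named from the platform annotation (41097 of 54675 probe sets had 1 symbol). Group means of all 14 arrays were fitted with limma 3.58.1 in R 4.3.3 (7 residual degrees of freedom, eBayes adding 2.3). P-values were adjusted over 9301 genes, and the script was tested on simulated data. The number of arrays limits the precision.

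Members, gene lists, the naming rule and tests were chosen with earlier results of these data known. By array were named the 12 largest rises and falls among genes whose groups did not overlap. Then came every other changed gene, up to 4 genes per list and preset pathway genes. Alternatives were quantile normalization, other filters, mean probe sets, a raised floor, robust moderation, a replicate block, only the groups compared, and each array left out. Same-numbered replicates of untreated and CGS-21680 cells deviated with a correlation of 0.0958 (-0.173 to 0.255 over all pairs of groups), so the numbers were not taken to pair samples.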

Additional observations from a re-analysis of the deposited data

Results flagged for a closer look

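IGFBP3, MYC and NSF were looked at again, since their CGS-21680 difference itself differed between the background without and with 25 nM dexamethasone. They are members of the lists or of the 61 changed genes. The listed genes WDR3 (ribosome biogenesis) and VIM (stromal markers) also passed that interaction test, at -1.49 and 2.41. With 1 array left out, their interactions ran from -1.39 to -1.58 and from 2.11 to 2.70. VIM missed the threshold without untreated replicate 1, and WDR3 missed it in none of these fits. IGFBP3 had an interaction of -2.22 (limma, adjusted p = 0.0092): both CGS-21680 arrays lay above the untreated ones, and both lay below the arrays of dexamethasone alone when dexamethasone was present. It missed the threshold without untreated replicate 1 (adjusted p = 0.0846) or replicate 2 (0.0581). MYC had an interaction of -1.28 (adjusted p = 0.0338), which kept passing among the 8 leave-outs only without low dexamethasone replicate 1 (0.0443), and reached 0.172 without untreated replicate 1. NSF had an interaction of 0.96 (adjusted p = 0.043) and missed the threshold in all 8 leave-outs, with 0.084 to 0.191.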

How the results depend on the processing

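None of the 61 called genes changed sign under an alternative in which it was tested, while the balance of rises and falls did turn, to 20 and 25 without CGS-21680 replicate 2. Small differences of genes that were not called can change sign. The 61 calls of CGS-21680 against untreated became 11 to 45 with 1 of the 4 arrays left out and 0 with these 4 arrays alone, where limma still had 780 genes at an unadjusted p under 0.05 (784 in the fit to 14 arrays) and a smallest adjusted p of 0.273. Other settings gave 56 to 76 calls. With the replicate block there were 65, of which 44 were higher and 21 lower, and the block changed the call of 13 of the 61 genes. Against salmeterol the 46 calls became 85 without the filter on low levels, 72 with the replicate block, 0 with the 4 arrays alone (1096 at an unadjusted p under 0.05 in limma) and 8 to 70 with 1 array left out. Quantile normalization kept 46 but moved the split from 26 higher and 20 lower with CGS-21680 to 17 and 29. Beside dexamethasone the 316 calls became 99 to 198 with 1 array left out and 0 with those 4 arrays alone (1342 at an unadjusted p under 0.05 in limma). The 14 interactions became 24 without the filter, 22 with the mean of probe sets, 22 with the replicate block, 0 with the 8 arrays alone (646 at an unadjusted p under 0.05 in limma) and 2 to 16 with 1 array left out. Fewer arrays leave fewer degrees of freedom. The cause of the other changes was not tested. Genes near the floor, such as TMEM65 and SLC25A24, have bounds in place of folds.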
